A study of Mus musculus with 6 samples.

Results

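Divergent long non-coding RNAs (lncRNAs) start close to the start of a protein-coding gene and are transcribed away from it on the opposite strand. They were taken from a table of transcripts in mouse heart by position alone: a lncRNA with an identifier of the Gm or Rik form, overlapping no listed coding transcript, whose 5′ end lay within 2000 bases of the 5′ end of a coding transcript on the opposite strand. The rule found 268 divergent lncRNAs among 8133 lncRNAs of these identifier forms with coordinates, and among 9413 lncRNAs in all. Each had a different nearest coding gene, called its partner here. All 268 pairs were head to head, with 142 of the lncRNAs on the plus strand, on 20 chromosomes. Chromosomes 5 and 7 held 26 each and chromosome X held 4. The rule also leaves out 4 lncRNAs by name, of which 0 met it by position, so the 268 are the same with and without that step. The rule itself uses no expression value, although it was written with earlier results of these data known.

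Many mammalian promoters recruit RNA polymerase II in both directions. In the direction of the gene, splicing signals protect the transcript from early termination. In the other direction, most transcripts are ended early at polyadenylation signals and degraded by the nuclear exosome, and those that escape can be spliced and polyadenylated and are annotated as divergent lncRNAs. Such promoters are commonly rich in CpG dinucleotides, and divergent lncRNAs are known at many genes of transcription factors and developmental regulators.

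RNA came from 6 hearts of male mice kept beating in isolation by Langendorff perfusion of the coronary vessels. In 3 Sham hearts the beat was not interrupted. In 3 hearts of ischaemia and reperfusion (I/R), a cardioplegic solution stopped contraction for 30 min, and reperfusion lasted 1 h. Strain and age were not given in the sources used here, and all hearts, Sham included, were isolated and perfused. Libraries were made from polyadenylated RNA, so that a transcript without a poly(A) tail was not captured. Levels are in FPKM, fragments scaled by transcript length and by the library's total. The totals behind them, inferred from the FPKM themselves, were 2025331 to 2792592 reads per heart for lncRNAs. For coding transcripts they were 7233171 to 9902397, so that an FPKM of a lncRNA and one of a coding gene are not on the same scale. Listed markers of ventricular cardiomyocytes summed to 9654 to 10265 FPKM in Sham hearts against 9634 to 10464 in I/R, with 9 of 10 listed and none at 0. The listed fibroblast markers, 6 of 6, summed to 132 to 191 FPKM in Sham hearts against 213 to 224 in I/R. The listed macrophage markers, 3 of 6, summed to 855 to 1037 and 1038 to 1156. These sums did not overlap between the groups, none of these markers was at 0 throughout, and the part of fibroblasts and macrophages in the differences below was not tested. In whole hearts, more cells of a type and more RNA per cell cannot be told apart.

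The lncRNAs sat close to their partners. The median distance between the 5′ ends was 146 bases, with quartiles of 78.5 and 320 bases and a range of 1 to 1973. Of the 268 pairs, 89 (33.2%) were within 100 bases, 180 (67.2%) within 250 and 222 (82.8%) within 500, and 22 lay between 1000 and 2000 bases apart. The most distant member was A430093F15Rik, 1973 bases from Cd5, just inside the limit, and the nearest lncRNA beyond it was Gm44194, 2059 bases from Chmp3.

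**Figure D1:**
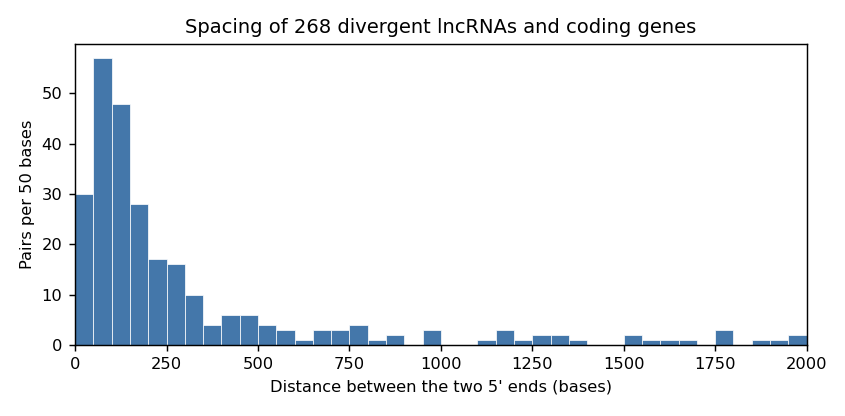
The histogram shows the number of pairs (vertical axis) per 50 bases of distance between the 5′ ends of the lncRNA and its partner (horizontal axis, bases). Most of the 268 pairs lie near the left edge, with a median of 146 bases and a thin tail up to 1973.

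The promoter sequence between the starts of a pair is shared by both transcripts. RefSeq promoter windows, 250 bases before to 50 after a gene's start, existed for 221 partners. In 176 of them the RefSeq start lay within 50 bases of the partner's 5′ end in the table, and 119 of these windows also held the 5′ end of the lncRNA. The windows below (RefSeq, GRCm38.p6, on the partner's strand) are shown because their pairs carry the results that follow. They include the pair of the most deeply read lncRNA (Rxrb), a very close pair (Cox10), a lncRNA with lower values in I/R beside a level partner (Zdhhc7) and partners with higher values in I/R (Pde12, Sap30). In the first 7, capitals mark the stretch from the 5′ end of the lncRNA to that of the partner, which both transcripts leave in opposite directions.
Rxrb with Gm20427, chr17:34031562-34031861, plus strand: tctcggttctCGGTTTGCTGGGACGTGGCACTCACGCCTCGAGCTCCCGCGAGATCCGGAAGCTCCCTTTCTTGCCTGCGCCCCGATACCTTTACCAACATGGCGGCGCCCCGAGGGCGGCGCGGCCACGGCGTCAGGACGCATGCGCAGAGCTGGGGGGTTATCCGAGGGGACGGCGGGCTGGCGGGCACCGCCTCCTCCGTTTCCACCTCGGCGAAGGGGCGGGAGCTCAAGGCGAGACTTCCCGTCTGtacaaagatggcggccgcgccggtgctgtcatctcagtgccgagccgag
Actg1 with 0610009L18Rik, chr11:120348446-120348745, minus strand: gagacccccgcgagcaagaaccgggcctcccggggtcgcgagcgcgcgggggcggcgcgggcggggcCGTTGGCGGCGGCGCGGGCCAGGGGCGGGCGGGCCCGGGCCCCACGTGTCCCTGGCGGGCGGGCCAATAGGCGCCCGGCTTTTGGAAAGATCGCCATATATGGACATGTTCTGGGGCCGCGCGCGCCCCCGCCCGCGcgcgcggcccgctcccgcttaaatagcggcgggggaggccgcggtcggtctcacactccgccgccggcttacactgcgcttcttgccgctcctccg
Cox10 with 2810001G20Rik, chr11:64079423-64079722, minus strand: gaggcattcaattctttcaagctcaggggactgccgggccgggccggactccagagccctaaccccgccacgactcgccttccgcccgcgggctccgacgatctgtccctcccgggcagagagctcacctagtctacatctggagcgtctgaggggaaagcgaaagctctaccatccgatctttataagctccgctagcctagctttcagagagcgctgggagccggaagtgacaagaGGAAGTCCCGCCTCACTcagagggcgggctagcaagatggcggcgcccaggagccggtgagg
Zdhhc7 with A130014A01Rik, chr8:120101423-120101722, minus strand: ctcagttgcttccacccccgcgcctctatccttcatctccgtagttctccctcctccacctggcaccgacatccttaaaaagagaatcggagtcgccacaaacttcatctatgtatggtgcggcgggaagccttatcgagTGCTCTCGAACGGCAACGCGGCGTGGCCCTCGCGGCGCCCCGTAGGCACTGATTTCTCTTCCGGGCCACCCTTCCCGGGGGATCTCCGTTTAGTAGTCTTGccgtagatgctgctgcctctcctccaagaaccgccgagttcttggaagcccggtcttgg
Pde12 with 9930004E17Rik, chr14:26669797-26670096, minus strand: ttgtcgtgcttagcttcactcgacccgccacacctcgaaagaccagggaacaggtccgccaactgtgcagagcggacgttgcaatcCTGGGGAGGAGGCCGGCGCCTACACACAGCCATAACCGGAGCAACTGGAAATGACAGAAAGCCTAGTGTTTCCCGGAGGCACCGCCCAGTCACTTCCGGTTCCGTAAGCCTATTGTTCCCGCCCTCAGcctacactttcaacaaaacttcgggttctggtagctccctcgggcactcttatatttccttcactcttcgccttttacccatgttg
Sap30 with 2500002B13Rik, chr8:57487811-57488110, minus strand: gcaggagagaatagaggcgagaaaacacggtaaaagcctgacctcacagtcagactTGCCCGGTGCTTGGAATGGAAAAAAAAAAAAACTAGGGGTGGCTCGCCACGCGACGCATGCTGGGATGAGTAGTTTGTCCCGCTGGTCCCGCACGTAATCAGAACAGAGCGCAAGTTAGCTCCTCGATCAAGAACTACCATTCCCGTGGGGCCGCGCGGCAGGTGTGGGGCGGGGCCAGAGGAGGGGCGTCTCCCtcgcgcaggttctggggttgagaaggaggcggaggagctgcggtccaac
Nfe2l2 with E030042O20Rik, chr2:75704614-75704913, minus strand: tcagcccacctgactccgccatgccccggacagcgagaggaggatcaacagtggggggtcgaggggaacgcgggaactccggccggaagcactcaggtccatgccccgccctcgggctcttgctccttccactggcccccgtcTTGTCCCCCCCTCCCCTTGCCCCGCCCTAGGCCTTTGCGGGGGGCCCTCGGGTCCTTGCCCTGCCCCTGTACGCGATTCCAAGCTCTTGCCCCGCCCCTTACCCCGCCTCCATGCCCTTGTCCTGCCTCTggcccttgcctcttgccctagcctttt
Klf15, the partner of Gm44117, chr6:90462326-90462625, plus strand: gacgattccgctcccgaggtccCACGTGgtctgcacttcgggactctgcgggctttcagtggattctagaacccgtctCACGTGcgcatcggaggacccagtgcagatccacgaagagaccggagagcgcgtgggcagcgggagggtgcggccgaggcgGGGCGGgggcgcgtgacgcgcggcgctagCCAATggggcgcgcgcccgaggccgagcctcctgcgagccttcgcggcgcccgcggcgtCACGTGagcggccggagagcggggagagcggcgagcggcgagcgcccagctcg

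In the window of Klf15 the lncRNA starts outside, 1108 bases from the gene's 5′ end, and capitals mark matches to a CCAAT box, a GC box and E-boxes. The windows of Klf15 and Actg1 held 47 and 50 CpG dinucleotides, that of Rxrb 37, and those of Pde12 and Nfe2l2 18 each. In the Rxrb window 30 of its 37 CpG lay between the 5′ ends of the pair. In the Cox10 window 1 of 23 did, because the stretch between them is 17 bases long, counting both ends. The GC box, GGGCGG on either strand, is bound by Sp factors and was found in 7 of these 8 windows, all but that of Zdhhc7.

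The windows of partners were richer in CpG than those of other listed coding genes. The median number of CpG was 25 in 176 partner windows (quartiles 18 and 32), 18 in 4439 windows of other listed coding genes (9 and 26) and 13 in 21263 windows of all RefSeq coding genes. A window was counted as CpG-rich with a ratio of observed to expected CpG of at least 0.6 and at least 50% GC. By this count 142 partner windows (80.7%) were CpG-rich, against 58.3% of the other listed genes and 45.1% of all. A GC box was in 79.5% of partner windows, 57.6% of the others and 46.2% of all. The TATA box, written TATAAA and bound by the TATA-binding protein, was in 5.11%, 8.65% and 12.6%, and the CCAAT box, bound by NF-Y, in 36.4%, 39.7% and 38.2%. The E-box CACGTG was in 14.2% of partner windows and 9.80% of the others. Of the longer motifs, the ETS core CCGGAAGT was in 9.09% and 6.38%, and the cyclic AMP response element TGACGTCA in 4.55% and 2.97%. The NRF1 site was in 2.84% of partner windows and 1.85% of the others, and the YY1 core in 1.70% and 1.73%. Each motif was searched on both strands, matches of different motifs may overlap, and a match is not evidence of binding. These shares are descriptions without a test.

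**Figure D2:**
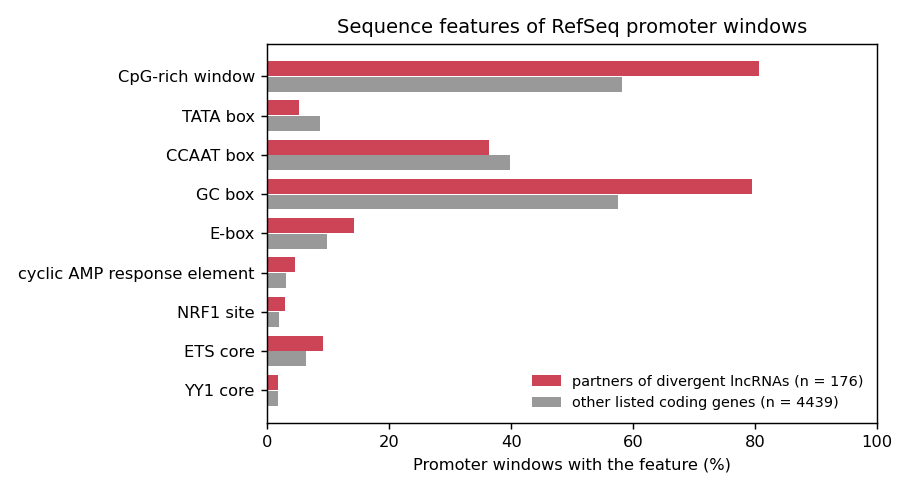
Bars give the percentage of RefSeq promoter windows (300 bases) that are CpG-rich or hold a motif on either strand, for 176 partners of divergent lncRNAs and 4439 other listed coding genes. The widest gaps are for CpG-rich windows (80.7% and 58.3%) and the GC box (79.5% and 57.6%).

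Divergent lncRNAs were present at low levels in the heart, with a small number at high levels. Their median level over the 6 hearts was 2.60 FPKM, with quartiles of 0.959 and 9.46 and a range of 0.0313 to 540. This was above the median of 1.82 FPKM for the 5191 other lncRNAs that overlapped no coding row. It was below the 13.9 FPKM of 1654 lncRNAs antisense to a coding row and the 11.8 FPKM of 1020 on the same strand as one. In those 2 classes, reads of the lncRNA and of the overlapped gene cannot be told apart, because the strand setting of the counting was not given. Of the 268, 64 were at 10 FPKM or more and 7 at 100 or more, and 186 had a read in every heart. Reads summed over hearts had a median of 48 per lncRNA. While 18 members had at least 1000 reads, 58 had fewer than 10. The 10 with the highest mean FPKM held 50.8% of all 94382 reads. The rank correlation of level with distance was −0.05, and the medians were 2.47 FPKM up to 100 bases, 3.29 from 100 to 250, 2.38 from 250 to 500, 1.44 from 500 to 1000 and 1.64 beyond.

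Some lncRNAs that overlap no coding transcript of the table overlap a coding gene in RefSeq. Of the 268 spans, 69 (25.7%) overlapped a RefSeq coding gene: 35 only the partner, whose RefSeq span was longer than its listed transcript, and 34 another gene. The other 199 overlapped none. The 34 had a median of 14.2 FPKM, against 2.11 in the 199 and 1.88 in the 35. They held 50.1% of all reads of divergent lncRNAs and made up 6 of the 10 most abundant members and 12 of the 25 most abundant. Whether counting used strand was not given in the sources used here, so reads of these lncRNAs and of the genes they overlap cannot be told apart. An unadjusted p under 0.05, described below, was found in 13 of 164 tested members without an overlap, 4 higher and 9 lower in I/R. With an overlap of the partner only, 2 were higher and 3 lower of 30 tested. With an overlap of another gene, 2 were higher and 3 lower of 32 tested. Over all lncRNAs tested the share was 10.8%.

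**Figure D3:**
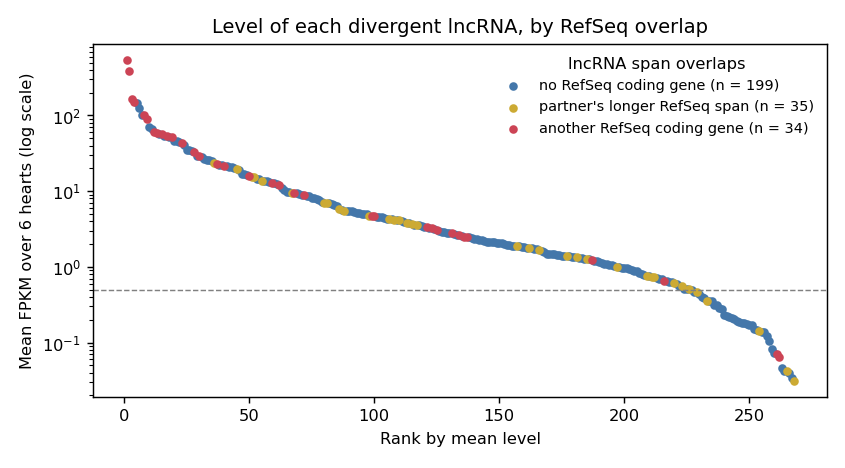
Each point is 1 of the 268 divergent lncRNAs, by rank (horizontal axis) and mean FPKM over 6 hearts (vertical axis, log scale), coloured by whether its span overlaps no RefSeq coding gene (199), only its partner's longer RefSeq span (35) or another RefSeq coding gene (34). The dashed line is the limit of 0.5 FPKM for testing, and 6 of the 10 highest points overlap another gene.

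Among the 10 most abundant members, Gm13610 had the highest level. This lncRNA (ENSMUSG00000086216, chr2:32232782-32236382, minus strand) starts 208 bases from Pomt1, which encodes a protein O-mannosyltransferase, and overlaps the RefSeq span of Prrc2b. It was at 508, 551 and 560 FPKM in the Sham hearts and 563, 580 and 479 in the I/R hearts, so the groups overlapped (difference −0.00 ± 0.10). Gm20427 (chr17:34026034-34031572, minus strand), 240 bases from the retinoid X receptor gene Rxrb, overlaps H2-Ke6 and Slc39a7. It had the most reads of any member, 21107, and was at 374, 391 and 387 FPKM in Sham hearts against 383, 411 and 375 in I/R. Its partner Rxrb was at 1.54, 1.5 and 1.37 FPKM in Sham hearts against 1.99, 1.76 and 2.09 in I/R, all I/R hearts above all Sham hearts (0.25 ± 0.18; limma adjusted p = 0.766). Gm44036, beside Gmcl1 and overlapping Anxa4, was at 176 ± 7.83 FPKM in Sham hearts against 159 ± 30.7 in I/R. Gm26533, beside the RNA polymerase II subunit gene Polr2d and overlapping Ammecr1l, was at 149 ± 10.1 and 150 ± 20.9. Gm12319, beside the muscle enolase gene Eno3 and overlapping Pfn1, and Gm44287, beside Wbp1 and overlapping Ino80b, were at 106 ± 8.81 and 101 ± 13.7 FPKM in Sham and at 93.9 ± 41.7 and 80.2 ± 28.4 in I/R, with overlapping groups (−0.26 ± 0.28 and −0.39 ± 0.25). I/R replicate 1 was the highest I/R heart for both. Without it the differences were −0.59 for Gm12319 and −0.64 for Gm44287, and without I/R replicate 3 they were −0.04 and −0.14.

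The other 4 of these 10 overlapped no RefSeq coding gene. Gm20186, 372 bases from Lsm8, which encodes a component of the U6 spliceosomal particle, was at 145, 168 and 134 FPKM in Sham hearts against 143, 165 and 125 in I/R. 0610009L18Rik, 136 bases from the cytoplasmic gamma-actin gene Actg1, was at 137, 110 and 124 FPKM in Sham hearts against 142, 98.9 and 152 in I/R. 2010320M18Rik, beside the phosphoinositide 3-kinase subunit gene Pik3r2, was at 64.6, 83.4 and 69.5 FPKM in Sham hearts against 69.4, 53 and 81.8 in I/R. In these 3 lncRNAs the groups overlapped. 4632427E13Rik (ENSMUSG00000074024, chr7:92734166-92741468, minus strand), 135 bases from the Rab GTPase gene Rab30, was at 117, 110 and 107 FPKM in Sham hearts against 88.1, 91.6 and 98.1 in I/R. Here every I/R heart lay below every Sham heart, by −0.27 ± 0.09 (limma adjusted p = 0.513). It rests on 5536 reads in Sham hearts against 4353 in I/R, the most of any member without an overlap, and the listed transcript of Rab30 had 4 reads in all. Low values of this kind affected many partners: 125 had fewer than 100 reads, 96 lncRNAs had more reads than their partner, and for 212 partners the table lists 1 transcript. Actg1 was listed at 0.892 to 4 FPKM and Eno3 at 0 to 0.835. The part of a partner's reads that its listed transcripts hold is not known.

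The comparison of I/R with Sham asks which of these transcripts differ after 1 h of reperfusion. No divergent lncRNA and no partner differed beyond the error of 3 hearts against 3 once all genes were considered. Of 268 members, 226 had the mean of at least 0.5 FPKM required for testing, and 42 were not tested. Limma, on log2(FPKM + 1) with Benjamini-Hochberg adjustment over 12114 genes, called 0 of them, as it called 0.0% of all genes. The smallest adjusted p of a member was 0.386. At an unadjusted p under 0.05, 8 members were higher and 15 lower in I/R, 10.2% of those tested. The background at that threshold was 10.8% of 7073 lncRNAs (4.81% higher, 6.02% lower) and 8.44% of 12114 genes (4.23% higher, 4.21% lower), so the members' share was near it. Differences are I/R minus Sham on the log2(FPKM + 1) scale, which understates those of low genes, and are given ± SE. Group levels are means ± SD, n = 3.

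The median difference of the 226 members was −0.05, with quartiles of −0.31 and 0.19, beside −0.03 for all lncRNAs tested. The difference was above 0 in 103 and below 0 in 123, where 45.9% of lncRNAs and 49.7% of all genes lay above 0. All I/R hearts lay above all Sham hearts in 8 members and below in 17, together 11.1%, where the background was 13.5% of lncRNAs and 13.7% of all genes. By spacing, at an unadjusted p under 0.05, 5 members were higher and 4 lower of 77 tested up to 100 bases. From 100 to 250 bases these were 1 and 6 of 72, and from 250 to 500, 2 and 3 of 40. From 500 to 1000 bases they were 0 and 0 of 17, and beyond, 0 and 2 of 20. Over all lncRNAs tested the share was 10.8%. Among the 132 members with at least 50 reads, differences ran from −0.99 to 0.76, 107 were within 0.5 of 0, and 3 were higher and 11 lower at an unadjusted p under 0.05. Over all 226 tested members, limma voom on reads recovered from the FPKM gave 2 higher and 10 lower at that threshold. The share of all lncRNAs under voom is not given here. Members took 0.657%, 0.662% and 0.654% of lncRNA reads in the Sham hearts and 0.640%, 0.626% and 0.610% in the I/R hearts. Without the members that overlap another gene, these shares were 0.336%, 0.334% and 0.327%, and 0.323%, 0.292% and 0.311%. In both counts every I/R heart lay below every Sham heart. Such a share also moves with the other lncRNAs in the total.

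Of the members lower in I/R, A130014A01Rik varied little within each group. It starts 100 bases from Zdhhc7 (ENSMUSG00000031823), which encodes a palmitoyltransferase, an enzyme that attaches palmitate to proteins. It was at 24, 22.1 and 22.3 FPKM in Sham hearts against 18.9, 14.7 and 14.8 in I/R, from 400 and 267 reads (−0.48 ± 0.15; limma adjusted p = 0.468). The highest I/R heart was below the lowest Sham heart. Zdhhc7 itself was at 33.2 ± 2.59 FPKM in Sham hearts against 33.7 ± 1.65 in I/R (0.02 ± 0.12), and its groups overlapped. The span of this lncRNA lies within the longer RefSeq span of Zdhhc7.

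Gm29642 (chr9:25152114-25175561, plus strand), 294 bases from Herpud2, was at 14.4, 7.21 and 11.8 FPKM in Sham hearts against 4.42, 5.85 and 4.62 in I/R (−0.99 ± 0.26; limma adjusted p = 0.43). All I/R hearts were below all Sham hearts, on 77 and 33 reads, and Herpud2 had 9 reads in all. Gm36070, 1596 bases from C2cd4d, had 14, 9 and 7 reads in the Sham hearts and 1, 5 and 0 in the I/R hearts (−1.17 ± 0.31; limma adjusted p = 0.42). Gm12257, beside the zinc finger gene Zfp39, had 5 reads in Sham hearts against 0 in I/R, too few for a fold. Of the 11 lower members with at least 50 reads at an unadjusted p under 0.05, 3 more are named after their values were seen. Others of the 11 are not named. Gm4673, beside the transcription factor gene Usf2 and overlapping Lsr, was at 57.1, 61.5 and 59.5 FPKM in Sham hearts against 46, 51.4 and 32.3 in I/R (−0.47 ± 0.18). Gm43254, beside the mitochondrial pyrophosphatase gene Ppa2 and without an overlap, was at 17.1, 16.2 and 16.5 FPKM in Sham hearts against 14, 11.7 and 10.8 in I/R (−0.42 ± 0.15). Gm49066, beside the focal adhesion kinase gene Ptk2, was at 22.9, 14.8 and 19.2 FPKM in Sham hearts against 13, 13 and 9.58 in I/R (−0.62 ± 0.21). In these 3 the groups did not overlap, and limma's adjusted p was 0.551, 0.513 and 0.498.

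The members higher in I/R rested on fewer reads. Gm9484 (chr5:96996206-96997364, minus strand), 325 bases from the kinase gene Bmp2k, was at 6.49, 5.73 and 3.41 FPKM in Sham hearts against 9.36, 7.64 and 11 in I/R (0.76 ± 0.25; limma adjusted p = 0.501), from 47 and 77 reads. Bmp2k was at 1.33 ± 0.193 and 1.83 ± 0.496 FPKM, with overlapping groups. Gm48768, 79 bases from Galnt4, which encodes an enzyme that starts O-glycosylation, was at 20.8, 14.7 and 19.4 FPKM in Sham hearts against 26.4, 23.7 and 24.3 in I/R (0.43 ± 0.16; limma adjusted p = 0.544). It had the most reads of the 8 members on this side, 314 and 406, and overlaps the RefSeq span of Poc1b. Galnt4 was at 7.16 ± 0.584 and 7.61 ± 1 FPKM. Gm38144, 443 bases from the amino acid transporter gene Slc38a2, had 1 read in each Sham heart and 2, 3 and 3 in the I/R hearts. Gm13783, beside the lysosomal phosphatase gene Acp2 and overlapping Nr1h3, had 7 reads in Sham hearts against 24 in I/R, of which 14 came from I/R replicate 1. Without that heart its difference was 0.70 instead of 1.16. 2810030D12Rik, beside Grtp1, had 4 and 15 reads.

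Differences were smaller for partners, with a median size of 0.14, than for their lncRNAs, with 0.26. Over all genes tested, the median sizes were 0.14 for coding genes and 0.23 for lncRNAs. Of 268 partners, 169 were tested and 99 were not. Limma called 0 of them, and 6 were higher and 3 lower in I/R at an unadjusted p under 0.05, 5.33% beside 5.1% of 5041 coding genes (3.43% higher, 1.67% lower). Their median difference was 0.04, against 0.02 for all coding genes tested, with a range of −0.63 to 0.72. Differences were above 0 in 102 and below 0 in 67, where 54.9% of coding genes lay above 0. All I/R hearts lay above all Sham hearts in 17 partners and below in 8, 14.8% beside 13.9% of coding genes.

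Insig1 (ENSMUSG00000045294, chr5:28071363-28078662, plus strand) had the smallest adjusted p of the partners. Its protein holds SCAP and the lipid-synthesis factor SREBP in the endoplasmic reticulum when sterols are plentiful. Insig1 was at 24.1, 23.1 and 30.4 FPKM in Sham hearts against 48.5, 38.8 and 40.7 in I/R (0.70 ± 0.15; limma adjusted p = 0.386), and every I/R heart was above every Sham heart. Its divergent lncRNA Gm26608, 258 bases away, was at 1.47, 0.944 and 2.02 FPKM in Sham hearts against 3.01, 1.77 and 1.52 in I/R, from 21 and 29 reads, with overlapping groups (0.32 ± 0.27). Without I/R replicate 1 the difference of Gm26608 was 0.12, and without Sham replicate 2 it was 0.15. Pde12 encodes a mitochondrial enzyme that removes poly(A) tails. It was at 8.13, 9.57 and 6.55 FPKM in Sham hearts against 10.3, 12.4 and 15.8 in I/R (0.60 ± 0.21; limma adjusted p = 0.524). Its lncRNA 9930004E17Rik, 127 bases away, was at 6.47, 5.93 and 4.96 FPKM in Sham hearts against 4.54, 13.9 and 12.8 in I/R (0.63 ± 0.39). The lncRNA was above all Sham hearts in I/R replicates 2 and 3 and below them in replicate 1. Its difference was 1.09 without I/R replicate 1 and 0.37 without replicate 2.

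Sap30, a subunit gene of the Sin3 histone deacetylase complex, was at 13.4, 13 and 16.4 FPKM in Sham hearts against 20.4, 18 and 18.7 in I/R (0.40 ± 0.15; limma adjusted p = 0.544). Its lncRNA 2500002B13Rik, with 575 and 553 reads, was at 33.9, 23.3 and 30.6 FPKM in Sham hearts against 32.3, 27.2 and 29.4 in I/R (0.03 ± 0.17). The groups were apart for Sap30 and overlapped for the lncRNA. Fermt2, which encodes the integrin-binding protein kindlin-2, was at 11.9 ± 1.8 FPKM in Sham hearts against 16.2 ± 0.91 in I/R (0.42 ± 0.15), while its lncRNA 4930527F14Rik had 49 and 54 reads (0.18 ± 0.41). With 1 heart left out, the difference of 4930527F14Rik ran from −0.22 to 0.46. Enho, which encodes the peptide adropin, was at 17.4 ± 3.92 and 24.9 ± 1.45 FPKM (0.52 ± 0.19), and its lncRNA Gm12405 had 6 reads. Without Sham replicate 1 the difference of Enho was 0.33. Slc38a2 was at 178, 188 and 170 FPKM in Sham hearts against 206, 239 and 192 in I/R (0.24 ± 0.11; limma adjusted p = 0.598), without overlap. Without I/R replicate 2 its difference was 0.16.

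On the lower side, Nutf2, which encodes the importer of Ran into the nucleus, was at 10.9, 9.57 and 11.1 FPKM in Sham hearts against 7.43, 8.11 and 4.38 in I/R (−0.63 ± 0.24; limma adjusted p = 0.544). Without I/R replicate 3 its difference was −0.39. Its lncRNA 4930578M07Rik had 21 and 22 reads. Zbtb20, a zinc finger repressor gene, was at 4.37 ± 0.689 and 2.66 ± 0.708 FPKM (−0.56 ± 0.22), and its lncRNA 4932412D23Rik had 1 read in all. Cmc1, a mitochondrial copper-binding protein gene, was at 6.6 ± 0.946 and 4.45 ± 1.23 FPKM, with Gm17399 at 9 and 5 reads. Arap1 was at 5.51 ± 1.55 and 3.55 ± 0.635 FPKM, with Gm45620 at 2 and 7 reads.

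In 1 of the 150 pairs with both tested, both transcripts had an unadjusted p under 0.05, and both were lower in I/R. Over all features tested, 10.8% of lncRNAs and 5.1% of coding genes passed that threshold. Whether 1 such pair is more than these shares would give was not tested, and the pair is described for its values only. Klf15 encodes a Krüppel-like factor that controls amino acid, lipid and glucose metabolism in heart and liver and follows the circadian clock. Klf15 (ENSMUSG00000030087, chr6:90462576-90475238, plus strand) was at 4.66, 3.67 and 5.65 FPKM in Sham hearts against 3.16, 2.22 and 3.02 in I/R, from 289 and 158 reads (−0.57 ± 0.22; limma adjusted p = 0.559). Gm44117 (ENSMUSG00000107605, chr6:90459711-90461468, minus strand) was at 4.07, 3.99 and 6.74 FPKM in Sham hearts against 1.8, 1.75 and 3.15 in I/R, from 63 and 28 reads (−0.87 ± 0.27; limma adjusted p = 0.484). In both, every I/R heart was below every Sham heart, and Sham replicate 3 was the highest of all. With any 1 heart left out, the difference stayed between −1.07 and −0.67 for Gm44117 and between −0.70 and −0.45 for Klf15. Gm44117 lies within the RefSeq span of Klf15, and the strand setting of the counting was not given in the sources used here, so reads of Klf15 transcripts that start upstream and reads of the lncRNA cannot be told apart.

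**Figure D4:**
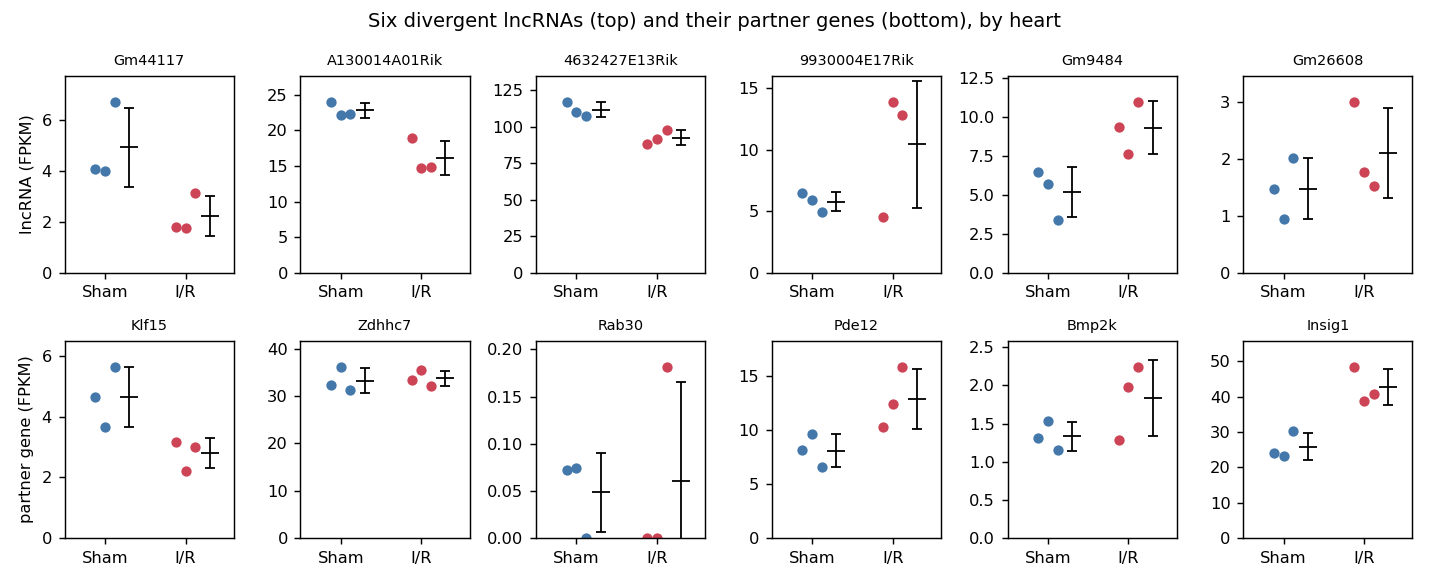
Each panel gives the FPKM of a divergent lncRNA (top row) or its partner (bottom row) in 3 Sham and 3 I/R hearts (points), with the mean and SD beside them. Gm44117 and Klf15 are both lower in I/R, A130014A01Rik is lower beside an overlapping Zdhhc7, and Insig1 is higher beside an overlapping Gm26608; the Rab30 panel rests on 4 reads.

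Across the 150 pairs with both members tested, both differences were above 0 in 47 and below 0 in 38. In 22 the lncRNA was higher and the partner lower in I/R, and in 43 the reverse held. The signs were therefore the same in 85 pairs, 56.7%. Across pairs, Pearson's r between the differences was 0.14 and Spearman's rank correlation 0.17, given as a description without a test because all pairs come from the same 6 hearts. In the 54 pairs with at least 100 reads for both, 30 had the same sign and the rank correlation was 0.10. Among 109 pairs without a RefSeq overlap the signs were the same in 62, and among 102 pairs within 250 bases in 60. In counts this sparse, correlations of this size are not read as a relation. Levels of lncRNA and partner were also weakly related over all 268 pairs (rank correlation 0.12).

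**Figure D5:**
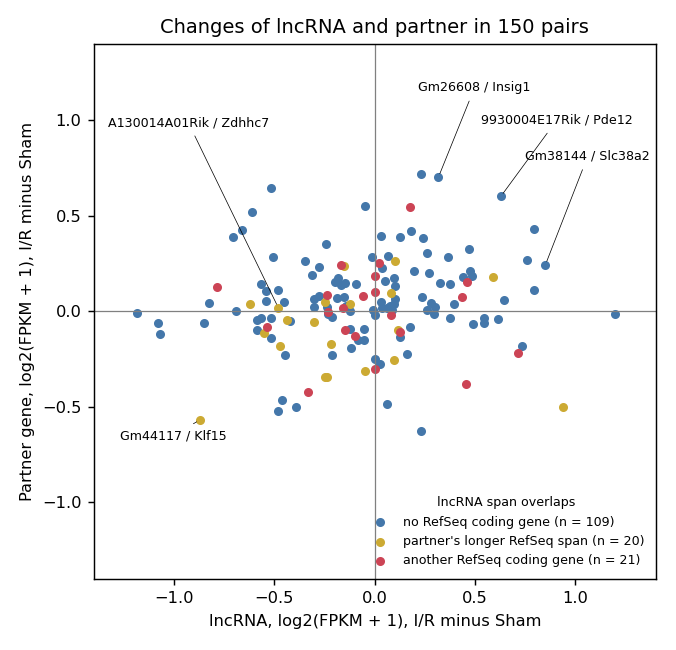
Each point is a pair of divergent lncRNA (horizontal axis) and partner (vertical axis), placed by the I/R minus Sham differences on the log2(FPKM + 1) scale and coloured by RefSeq overlap. The 150 pairs spread around 0 on both axes, and 85 have differences of the same sign.

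The closest pairs showed the same mixture. Gm49208 starts 1 base from Ropn1l, which encodes a sperm flagellar protein, and was at 9.02, 14.9 and 2.49 FPKM in Sham hearts against 13.7, 19.4 and 7.5 in I/R. 1110019D14Rik, 8 bases from 2610001J05Rik, was at 27.3 ± 2.45 FPKM in Sham hearts against 25.1 ± 6.52 in I/R. Gm47735, 11 bases from the Polycomb gene Pcgf5, was at 15.5 ± 3.56 and 18.1 ± 5.43 FPKM. 2810001G20Rik starts 16 bases from Cox10, which encodes an enzyme needed to make the haem of cytochrome c oxidase. It was at 63.9, 54.3 and 49.9 FPKM in Sham hearts against 44.8, 54.2 and 45.2 in I/R (−0.21 ± 0.14), which was −0.12 without Sham replicate 1, and Cox10 was at 67.7 ± 4.01 and 66.3 ± 1.03 FPKM. 4930483J18Rik, 17 bases from Mkl1, had 1 read. The groups overlapped in all 5 of these lncRNAs.

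Partners in lists of cellular roles were described next. Among stress-response factors, Nfe2l2, which encodes the antioxidant regulator NRF2, was at 110 ± 16.2 FPKM in Sham hearts against 110 ± 10.6 in I/R. Its lncRNA E030042O20Rik was at 14.8, 10.6 and 14.2 FPKM in Sham hearts against 9.5, 17 and 14.9 in I/R, with overlapping groups. In that list, chosen with earlier results of these data known, 24 of 51 genes were tested. At an unadjusted p under 0.05, 11 were higher and 0 lower, where 3.43% of coding genes were higher and 1.67% lower. Because of how the list was chosen, this count is not evidence about such factors. Nfe2l2 was not among the 11 (difference 0.02, limma unadjusted p = 0.913). Among cardiac and developmental factors, Smad7, an inhibitor of TGF-beta signalling, was at 5.27 ± 0.443 FPKM in Sham hearts against 3.63 ± 1.52 in I/R (−0.48 ± 0.26). Without I/R replicate 1 the difference of Smad7 was −0.28, and without replicate 3 it was −0.73. Its lncRNA Gm20544 was at 55.6 ± 5.75 and 58.4 ± 10.4 FPKM. Among chromatin regulators, the histone acetyltransferase gene Ep300 was at 4.2 ± 1.18 and 2.71 ± 1.3 FPKM (−0.52 ± 0.32), and its lncRNA 1110025M09Rik at 10.3 ± 2.45 and 7.56 ± 4.23 (−0.48 ± 0.35). In both, the 2 lowest hearts were I/R replicates 1 and 2, and the groups overlapped. Leaving out 1 I/R heart moved Ep300 to as little as −0.26 and 1110025M09Rik to between −0.86 and −0.27.

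Of the mitochondrial partners, Uqcrc2, a core subunit gene of respiratory complex III, was at 92.4 ± 3.52 and 98.7 ± 13.2 FPKM beside Gm45112 at 3.7 ± 1.12 and 2.94 ± 0.494. Atp5b, the gene of the beta subunit of ATP synthase, was at 15.4 ± 2.95 and 15.7 ± 6.75 FPKM. Its lncRNA Gm47438 was at 9.74, 10.3 and 5.5 FPKM in Sham hearts against 5.59, 6.43 and 3.95 in I/R (−0.57 ± 0.28; limma adjusted p = 0.632). Polg, the gene of the mitochondrial DNA polymerase, was at 4.13 ± 0.58 and 4.29 ± 0.701 FPKM, and Gm10616 had 24 reads. In none of these 3 pairs did the groups separate.

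Among partners that process RNA, nucleolin (Ncl) was at 30.7 ± 2.57 and 32.5 ± 5.9 FPKM with C130036L24Rik at 8.43 ± 0.785 and 7.37 ± 1.57. The helicase gene Dhx15 was at 2.6 ± 0.0756 and 2.56 ± 0.303 FPKM with 9230114K14Rik at 25.2 ± 4.76 and 25.1 ± 4.94. Gm26594, beside the splicing factor gene Prpf3, was at 10.8 ± 1.4 and 8.81 ± 2.43 FPKM, and Prpf3 at 0.225 ± 0.072 and 0.173 ± 0.136. Gm32816, beside the RNA-binding protein gene Tial1, had 13 reads in each group, and Tial1 was at 0.687 ± 0.262 and 0.406 ± 0.312 FPKM. Of the ubiquitin genes, Ube2h, which encodes a ubiquitin-conjugating enzyme, was at 79.5, 82.9 and 85.2 FPKM in Sham hearts against 89.7, 93.7 and 97.5 in I/R, without overlap (0.18 ± 0.09; limma adjusted p = 0.646). Its lncRNA 1700095J07Rik had 0 reads in Sham hearts against 4 in I/R. 4632404H12Rik, beside the related gene Ube2q1, was at 26.9, 27.5 and 27.9 FPKM in Sham hearts against 26.4, 24 and 23.3 in I/R, every I/R heart below every Sham heart (−0.16 ± 0.12; limma adjusted p = 0.774). Ube2q1 was at 6.24 ± 0.486 and 6.66 ± 1.03 FPKM. Gm11491, beside the ubiquitin ligase gene Trim37, was at 45.6 ± 12.1 and 40.6 ± 10.4 FPKM, and Trim37 at 4.83 ± 1.11 and 5.86 ± 0.948. In the repair and cell cycle list, Gm11423, beside the DNA ligase gene Lig3, was at 15.9 ± 3.23 and 12.8 ± 3.34 FPKM, and Lig3 at 0.124 ± 0.0211 and 0.0933 ± 0.0454. 2010110K18Rik, beside the phosphatase gene Cdc25c, had 6 reads, and Cdc25c was at 0.669 ± 0.591 and 0.409 ± 0.156 FPKM.

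Genes of transcription termination and of RNA decay by the exosome did not pass the test either. Of 45 genes of polyadenylation and transcription termination, 18 were in the table and 12 tested. Limma called 0 of them, and at an unadjusted p under 0.05, 0 were higher and 0 lower. The median difference was −0.03. Cstf2t, which encodes a cleavage stimulation factor, was at 63.1 ± 3.35 FPKM in Sham hearts against 58.9 ± 1.54 in I/R, and Wdr33, of the complex that binds the polyadenylation signal, at 18.3 ± 0.621 and 16.9 ± 0.198. The cleavage stimulation factor genes Cstf2 and Cstf3 were at 0.808 ± 0.236 and 2.12 ± 0.631 FPKM in Sham and at 1.17 ± 0.318 and 2.51 ± 0.764 in I/R. Of 31 genes of the exosome, not all of them nuclear, and its adaptors, 9 were in the table and 7 tested. Again 0 were higher and 0 lower, with a median of −0.04. The exosome subunit gene Exosc5 was at 1.07 ± 0.152 and 0.777 ± 0.301 FPKM, and the adaptor gene Zc3h18 at 3.34 ± 0.916 and 2.93 ± 0.34. Exosc1 was at 0.863 ± 0.345 and 0.611 ± 0.406 FPKM, and the exonuclease gene Dis3l at 5.66 ± 1.87 and 6.29 ± 0.0699.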

How the data were processed

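RNA of 6 mouse hearts, 3 Sham and 3 I/R, was enriched for poly(A) and made into libraries with NEBNext Ultra II reagents (labels' protocols). Tools in the submitters' processing notes are HISAT2 2.1.0, HTSeq 0.10.0, fastp 0.23.0 and bcl2fastq 2.19.1.403, and builds are GRCm38, mm10 and GRCm39, with no role for any. The sources used here give neither annotation nor strand setting. The authors deposited FPKM of each transcript.

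Transcripts of a coding gene were summed. Coordinates are given as GRCm38, since 97.1% of 8614 coding genes overlapped their RefSeq GRCm38.p6 span by at least 50%. Whole reads (within 0.001) were recovered from the FPKM of 9413 of 9413 lncRNA rows and 11744 of 11745 coding rows, to give the depth behind each value. The library totals were inferred from ratios of FPKM between hearts, which leave a whole factor open. The factor was chosen by how many rows then had a span that gave whole reads, and all read counts scale with it. In 2872 lncRNA rows and 470 coding rows the transcript's span gave whole reads and was taken as its length. In the other rows the smallest length that gave whole reads was taken. Their counts are the smallest that fit and may be too low, above all in rows with reads in 1 heart. The 12114 genes that averaged 0.5 FPKM or more were fitted on log2(FPKM + 1) with limma 3.58.1 (R 4.3.3, a variance trend, group alone in the model, two-sided), with Benjamini-Hochberg adjustment and a threshold of 0.05. The fitting script was tested on simulated data. Python 3.11.15 with pandas 2.3.3, numpy 2.4.6 and matplotlib 3.10.9 made the tables and plots.

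The members and the gene lists were chosen with earlier results of these data known. Named were the 10 most abundant members, 5 per direction with the smallest p, members beside the 5 partners per direction with the smallest p, the 5 closest pairs, and up to 4 per list of partner roles. Others are said to be named after their values were seen. Marker lists covered ventricular and atrial cardiomyocytes, fibroblasts, endothelium, smooth muscle, macrophages, blood, skeletal muscle and lung. The alternatives were another pseudocount, other filters, scaling, distances and test, a replicate block and each heart left out. The labels call the hearts biological replicates and do not say more; p-values measure the spread between these samples. Sums of atrial markers (4 of 4 listed) were 330 to 722 FPKM in Sham and 466 to 953 in I/R. Those of endothelial markers (4 of 6) were 96.5 to 125 and 115 to 145, and of smooth muscle (4 of 5) 810 to 1062 and 794 to 1131. Those of skeletal muscle (2 of 4, with Myh4 and Myh1 not listed) were 170 to 1181 and 356 to 1381. Blood (1 of 3) was at 0.881 to 2.15 and 0 to 2.68, and lung (1 of 2) at 0 to 0.581 and 0.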

Additional observations from a re-analysis of the deposited data

How the results depend on the processing

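With each alternative tried, limma called 0 genes; the smallest adjusted p of any gene was 0.0846 and of a divergent lncRNA 0.249. The 23 of 226 divergent lncRNAs at an unadjusted p under 0.05 (8 higher, 15 lower) became 14 of 152 (3 and 11) with a mean of at least 2 FPKM. With limma voom on recovered reads they became 12 of 226 (2 and 10). They became 13 of 164 (4 and 9) without members overlapping a RefSeq coding gene. Among those with at least 50 reads they became 14 of 132 (3 and 11). These last 2 alternatives were chosen after seeing the data. Except with voom, where the cause was not tested, these test fewer members. The share of all lncRNAs was 10.8% in the main fit and is not given for the other fits, so these counts are not set against a background. The median change of partner genes, 0.0397, became 0.0115 with median ratio scaling and 0.0182 without a filter on low values, and the cause was not tested. With 1 heart left out, the count of members ranged from 16 to 25, the median change of divergent lncRNAs from −0.107 to −0.0175 and that of partners from 0.0308 to 0.0562. The other settings gave 19 to 26 members. Among 91 named genes, 71 of 1062 alternative values changed sign, 0 of them in genes with an unadjusted p under 0.05. That 0 cannot measure stability, because those genes were picked by p in the same hearts that the alternatives fit again. By limma, Gm45620 kept an unadjusted p under 0.05 in 4 of 11 settings and A130014A01Rik in 12 of 12. Depth limits the members: 58 of 268 had fewer than 10 reads.

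A replicate block, pairing hearts by number, gave 26 divergent lncRNAs (9 higher, 17 lower), medians of −0.0472 and 0.0397, and 0 calls after adjustment. Deviations of same-numbered hearts correlated by 0.153, 0.0283 and 0.0287. Sham replicates 1 and 3 correlated best with the I/R heart of their own number, and Sham replicate 2 with I/R replicate 3 (0.111). The correlations were low and the labels name no pairs, so the numbers were not taken as pairs.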

Other observations

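Divergent lncRNAs whose names have another form were outside the rule, and 24 of them met its other conditions. They are described after their values were seen. Mhrt, a cardiac lncRNA of the myosin heavy chain locus whose 5′ end lies 1751 bases from that of Myh6, was at 2894, 2567 and 2771 FPKM in Sham hearts against 2111, 1966 and 2642 in I/R. The highest I/R heart lay above the lowest Sham heart (−0.30 ± 0.12; limma adjusted p = 0.579), and the listed transcripts of Myh6, the adult alpha myosin heavy chain, were at 27.5 ± 4.37 and 21.6 ± 1.91 FPKM (−0.33 ± 0.16). Brip1os, 177 bases from the helicase gene Brip1, was at 189 ± 2.04 and 191 ± 6.7 FPKM. Ptgs2os, 68 bases from Ptgs2, the gene of the inducible cyclooxygenase, had 15 reads in Sham hearts against 31 in I/R (0.60 ± 0.34). Ptgs2 was at 14.6 ± 7.77 FPKM in Sham hearts against 34 ± 18.2 in I/R (1.11 ± 0.57), with overlapping groups. Snhg1, a small nucleolar RNA host gene 106 bases from the amino acid transporter gene Slc3a2, was at 95.2 ± 16.5 and 95.6 ± 14.1 FPKM. Crnde, 1505 bases from the homeobox gene Irx5, was at 46.6 ± 5.17 and 50.5 ± 5.46 FPKM. Fendrr, 1276 bases from the forkhead gene Foxf1, had 12 and 16 reads, and Foxf1 was at 0.975 ± 0.602 and 1.9 ± 0.312 FPKM (0.60 ± 0.29).

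Gene Ontology terms in the table's own annotation, searched by word after the values were seen, gave a description of the partners without a test. Terms with the word transcription were attached to 58 of 268 partners (21.6%) and to 1401 of 8969 coding genes (15.6%). Protein transport was attached to 22 partners (8.21%) and 4.60% of genes. Terms of heart development were attached to 15 partners (5.60%) and 3.62% of genes, among them Efnb2, Ep300, Gli3, Klf15, Ptk2, Rxrb, Smad7 and Speg. Cell cycle and cell division were attached to 18 partners (6.72%) and 6.73% of genes, and DNA repair to 2 partners (0.746%) and 1.82% of genes.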
